A study of Mus musculus with 3 samples.

Results

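Axon guidance ligands and receptors were followed across the neurons of the mouse intrinsic cardiac nervous system and the cells sorted with them. The set held 40 genes, listed by name, of the 30406 genes that the 3 deposited matrices share: 10 semaphorins, 9 neuropilins and plexins, 3 Slits, 2 Robo receptors, 2 netrins, 3 netrin receptors, 5 ephrins and 6 Eph receptors. Fluorescent cells were sorted from atrial ganglia of Baf53b-cre;lox-GFP mice of both sexes, in which Cre from the promoter of Baf53b (Actl6b), a subunit of the neuronal chromatin remodelling complex, switches on GFP. A single library each was made with the Chromium 3′ V3 kit from anterior ganglia (labelled 3 months of age), from posterior ganglia (labelled 4 months) and from ganglia of both regions pooled, called the mixed library (labelled 2 months). Region therefore cannot be told apart from library or labelled age. The protocol in the labels names 10 mice, and no source used here says whether libraries share animals.

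Values are counts of unique molecular identifiers (UMIs), each standing for 1 captured RNA molecule, and levels are UMIs per 10000 UMIs of the same cells. Such 3′ tags are not divided by gene length, and capture can differ between genes, so levels of different genes are set side by side only as UMIs per 10000. Neurons were barcodes with at least 10000 UMIs and with Snap25, Prph and Stmn2 all detected, which gave 1315 anterior, 1447 posterior and 1998 mixed neurons with median depths of 39854, 57151 and 57062.5 UMIs. Nos1 neurons had at least 1 Nos1 UMI per 10000. Of the others, Ddah1 neurons had Npy under 4 and Ddah1 at 1 or more per 10000, and Npy neurons had Npy at 4 or more and Ddah1 under 1. Npy encodes the cotransmitter neuropeptide Y, Nos1 the neuronal nitric oxide synthase, and Ddah1 an enzyme that degrades an endogenous inhibitor of nitric oxide synthases. There were 103, 436 and 336 Ddah1 neurons, 84, 61 and 55 Nos1 neurons and 1047, 760 and 1504 Npy neurons in the anterior, posterior and mixed libraries. All triples of values below keep that order of libraries. Nearly all Nos1 neurons also had Npy at 4 or more per 10000 (83 of 84, 60 of 61 and 54 of 55). Marker-gated glia-like cells numbered 171, 170 and 90, fibroblast-like cells 94, 182 and 121, endothelial-like cells 30, 28 and 22, and mural-like (pericyte and smooth muscle) cells 19, 24 and 40. The summed level of the 3 neuron markers was 98.1, 92.0 and 102 per 10000 in neurons. The 8 glial markers summed to 132, 157 and 223 per 10000 in glia-like cells. The fibroblast markers summed to 211, 287 and 193 in fibroblast-like cells. Mural-like cells had 70.6, 71.3 and 47.4 of mural markers beside 15.5, 40.1 and 14.0 of fibroblast markers. Endothelial-like cells had 59.5, 59.3 and 53.9 of endothelial markers beside 5.76, 3.04 and 23.0 of fibroblast markers. The part of fibroblast RNA in the values of these classes was not tested. No doublet caller was run. Neurons carrying RNA of another class (93, 53 and 40) were kept, and 2 to 3 barcodes were shared by any 2 libraries.

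Guidance cues steer growing axons, and their genes stay active in adult nerves, glia and vessels. Secreted class 3 semaphorins bind neuropilins, which signal through plexins, while membrane-bound semaphorins bind plexins directly. Slit proteins repel axons through Robo receptors. Netrins attract axons through Dcc and repel them through Unc5 receptors. Ephrins are membrane-bound ligands of Eph receptor tyrosine kinases, and signals can pass into both the cell with the receptor and the cell with the ephrin. In the heart, semaphorin signals are known to shape the outflow tract and the pattern of sympathetic nerves.

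The promoters of Nrp2, Nrp1 and Slit2 are shown because these genes are among those that differed most between the neuron subtypes, Nrp2 towards Ddah1 neurons and the other pair towards Nos1 neurons. Sequences are those of RefSeq on GRCm38.p6, from 250 bases before to 50 bases after the annotated start, on the plus strand: chr1:62703067-62703366 for Nrp2, chr8:128358823-128359122 for Nrp1 and chr5:47982905-47983204 for Slit2. In the GENCODE annotation used for gene positions Nrp1 starts at 128358604, so its whole window lies within the gene as annotated there. Capitals mark CANNTG, the core that basic helix-loop-helix factors recognise, which reads the same on both strands as a pattern.
Nrp2: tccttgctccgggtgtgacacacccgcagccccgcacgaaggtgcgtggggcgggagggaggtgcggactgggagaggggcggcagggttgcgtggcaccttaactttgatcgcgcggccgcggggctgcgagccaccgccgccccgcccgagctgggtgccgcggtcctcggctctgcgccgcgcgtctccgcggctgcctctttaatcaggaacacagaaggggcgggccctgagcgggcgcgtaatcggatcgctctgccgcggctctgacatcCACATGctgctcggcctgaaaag
Nrp1: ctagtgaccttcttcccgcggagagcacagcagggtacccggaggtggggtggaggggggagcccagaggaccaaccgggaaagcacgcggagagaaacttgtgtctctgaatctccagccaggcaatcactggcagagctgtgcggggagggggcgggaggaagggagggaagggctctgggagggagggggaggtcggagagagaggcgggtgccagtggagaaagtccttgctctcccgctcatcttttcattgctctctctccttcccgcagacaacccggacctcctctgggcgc
Slit2: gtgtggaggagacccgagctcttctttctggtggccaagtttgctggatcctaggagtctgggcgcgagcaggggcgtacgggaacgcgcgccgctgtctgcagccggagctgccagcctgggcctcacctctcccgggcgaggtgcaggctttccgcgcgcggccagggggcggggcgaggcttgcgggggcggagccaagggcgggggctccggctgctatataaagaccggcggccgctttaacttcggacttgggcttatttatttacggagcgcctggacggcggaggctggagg
The Nrp2 window held 1 CANNTG, and the Nrp1 and Slit2 windows held 0. The Slit2 window held 1 TATAAA, searched on both strands. Of the 40 genes, 32 had a promoter in the table, and 13 of those 32 held CANNTG, against 72.3% of all 32851 promoters of the same length. TATAAA was found in 2 of 32, against 13.6% of all promoters, and TAATTA in 1 of 32, against 5.29%. A gene of the set with more than 1 window (up to 3) counted once if any window matched, while the shares of all promoters count each window. These are matches of letters, and no match says only that the letters are not in this window.

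In Ddah1 neurons the guidance genes shifted in both directions relative to Npy neurons. Nrp2, the neuropilin that binds Sema3f and Sema3c, rose most among the well-detected genes. Slit2, its receptors Robo1 and Robo2, and Sema3c fell. Counts were summed per library and subtype and tested with edgeR's quasi-likelihood test with library as a block, over 16221 genes with Benjamini-Hochberg adjustment. Of the 40 genes, 38 had enough UMIs to be tested (Sema3a and Slit1 did not), 8 were higher in Ddah1 neurons, 14 were lower and 16 did not pass an adjusted p of 0.05. Among all genes tested, 11.7% were higher and 13.9% were lower (25.6% in either direction). The median log2 fold change was -0.36 over the 38 genes and -0.02 over all genes tested. Replicates are 3 libraries that differ in region and labelled age. Each p-value sets the subtype difference against a spread that edgeR estimates from the sums of all 3 subtypes and moderates across genes. Each SE is the log2 fold change divided by the square root of the test's F statistic. Neither is the spread of the 3 single-library ratios, which for Nrp2 ran from 4.42 to 21.5.

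Nrp2 (chromosome 1, 62703285 to 62818695, plus strand, GRCm38) stood at 0.151, 0.643 and 0.425 UMIs per 10000 in Ddah1 neurons, against 0.0341, 0.0327 and 0.0198 in Npy neurons. The groups did not overlap in any library, and the posterior Ddah1 neurons were highest. The log2 fold change was 3.88 ± 0.20 (SE, n = 3 libraries; edgeR adjusted p = 1.22e-15). Within single libraries the ratio of Ddah1 to Npy neurons was 4.42 (95% Poisson interval 3.23 to 5.99) in the anterior, 19.6 (16.5 to 23.5) in the posterior and 21.5 (18.2 to 25.5) in the mixed library. These intervals cover counting error only. With each neuron thinned to 10000 UMIs, a Nrp2 UMI was found in 13.6% (Clopper-Pearson 95% interval 7.63 to 21.8), 36.0% (31.5 to 40.7) and 28.0% (23.2 to 33.1) of Ddah1 neurons, against 2.01% (1.25 to 3.05), 3.42% (2.25 to 4.97) and 1.80% (1.19 to 2.60) of Npy neurons. Without thinning the shares were 28.2%, 64.9% and 55.1% in Ddah1 neurons and 6.97%, 10.4% and 7.58% in Npy neurons. Median depths were close in each library: 41297, 58843 and 59223.5 UMIs in Ddah1 neurons and 40140, 58034.5 and 56764.5 in Npy neurons. Nrp2 was thus detected in more Ddah1 than Npy neurons of every library at equal depth.

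Among the other receptors, the plexin Plxnb1 (chromosome 9, 109095389 to 109119917, plus strand), which receives Sema4d, had 0.0622, 0.0477 and 0.0305 UMIs per 10000 in Ddah1 neurons, against 0.0115, 0.0106 and 0.0083 in Npy neurons (log2 fold change 2.10 ± 0.22, adjusted p = 4.67e-09). Plxna4, the plexin A partner of Nrp1 and a receptor of class 6 semaphorins, had 0.838, 1.29 and 0.638 per 10000 in Ddah1 neurons and 0.634, 0.851 and 0.421 in Npy neurons (0.52 ± 0.06, adjusted p = 3.44e-08). Both genes were higher in Ddah1 neurons within each of the 3 libraries, although the Plxna4 ranges overlapped. Nrp1 (chromosome 8, 128358604 to 128503363, plus strand), the neuropilin for Sema3a, fell: it had 0.0431, 0.0318 and 0.0208 per 10000 in Ddah1 neurons, against 0.0704, 0.0979 and 0.0364 in Npy neurons (-1.23 ± 0.18, adjusted p = 3.48e-06). Plxnd1, the receptor of Sema3e, had 0.0168, 0.0167 and 0.0112 per 10000 in Ddah1 neurons, against 0.0332, 0.0386 and 0.0202 in Npy neurons (-1.07 ± 0.20, adjusted p = 1.45e-04). For Nrp1 the libraries overlapped, since the anterior Ddah1 value lay above the mixed Npy value, but Ddah1 neurons were lower within each library. The pair of neuropilins thus moved in opposite directions, Nrp2 up and Nrp1 down. Of the 9 neuropilins and plexins, 3 were higher and 5 lower, and Plxna1 did not pass. The remaining lower plexins, Plxna2, Plxna3 and Plxnc1, had log2 fold changes between -0.77 and -0.46.

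Slit and Robo genes were lower together. Slit2 (chromosome 5, 47983138 to 48307733, plus strand), a secreted repellent, had 0.0263, 0.0119 and 0.0102 UMIs per 10000 in Ddah1 neurons, against 0.0637, 0.0935 and 0.0767 in Npy neurons (log2 fold change -2.72 ± 0.19, adjusted p = 1.45e-12). Robo1 (chromosome 16, 72308306 to 73046095, plus strand) had 0.110, 0.0834 and 0.0493 per 10000 in Ddah1 neurons, against 0.287, 0.356 and 0.205 in Npy neurons (-1.99 ± 0.10, adjusted p = 5.18e-16). Robo2 had 0.0120, 0.00596 and 0.00508 per 10000 in Ddah1 neurons, against 0.0351, 0.0287 and 0.0207 in Npy neurons (-2.10 ± 0.27, adjusted p = 3.14e-07). In each library the Ddah1 neurons were below the Npy neurons for all 3 genes. Slit3 was lower by a smaller amount (-0.40 ± 0.11, adjusted p = 0.00593), a call that was lost without the posterior library (adjusted p = 0.288). Of these genes, 2 of 2 tested Slits and 2 of 2 Robo receptors were lower.

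Of the 9 semaphorins tested, 1 was higher and 3 were lower. Sema3c (chromosome 5, 17574281 to 17730268, plus strand), a secreted semaphorin that acts through both neuropilins, had 0.0599, 0.0218 and 0.0203 per 10000 in Ddah1 neurons, against 0.194, 0.255 and 0.214 in Npy neurons (log2 fold change -3.24 ± 0.17, adjusted p = 1.40e-15). It was low in the Ddah1 neurons of every library and least so in the anterior. Sema5a, a transmembrane semaphorin, had 0.00479, 0.0119 and 0.0112 per 10000 in Ddah1 neurons, against 0.00120, 0.00283 and 0.00170 in Npy neurons (2.25 ± 0.44, adjusted p = 2.00e-04), on 54 and 32 UMIs. Sema4d and Sema6d, the most abundant in all neurons of the semaphorins among the 40 genes, were lower by small amounts (-0.36 ± 0.07, adjusted p = 1.09e-04, and -0.29 ± 0.06, adjusted p = 9.46e-04). The Sema6d call was lost without the posterior library (adjusted p = 0.101).

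Among netrin receptors Dcc, which mediates attraction, was higher: 0.0239, 0.0389 and 0.00559 per 10000 in Ddah1 neurons, against 0.00673, 0.0137 and 0.00182 in Npy neurons (log2 fold change 1.57 ± 0.29, adjusted p = 1.08e-04). The levels overlapped between libraries and were higher in Ddah1 neurons within each. Unc5c, at 0.713, 0.765 and 0.583 per 10000 in Ddah1 neurons and 0.725, 0.933 and 0.562 in Npy neurons, did not pass (-0.13 ± 0.06, adjusted p = 0.13), nor did Unc5b (-0.05 ± 0.11, adjusted p = 0.813). Both netrins were near the detection limit in these neurons, with 3 and 13 Ntn1 UMIs and 16 and 33 Ntn4 UMIs in all Ddah1 and Npy neurons.

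In the ephrin and Eph families, Epha7 (chromosome 4, 28813131 to 28967499, plus strand), an A-type receptor, had 0.0575, 0.0917 and 0.0909 UMIs per 10000 in Ddah1 neurons, against 0.0132, 0.0200 and 0.0133 in Npy neurons (log2 fold change 2.41 ± 0.18, adjusted p = 3.56e-12). Epha3 had 0.00239, 0.00278 and 0.00203 per 10000 in Ddah1 neurons, against 0.0135, 0.0198 and 0.0186 in Npy neurons (-2.96 ± 0.36, adjusted p = 9.27e-08). The related receptors Epha7 and Epha3 therefore moved oppositely in all 3 libraries, although Epha3 rested on 1, 7 and 4 UMIs in Ddah1 neurons. In the anterior library the Epha3 ratio was 0.178 with a 95% Poisson interval of 0.00443 to 1.03, which held 1. Efna5, an A-type ephrin that binds both, had 0.350, 0.425 and 0.291 per 10000 in Ddah1 neurons, against 0.816, 1.04 and 0.733 in Npy neurons (-1.33 ± 0.06, adjusted p = 1.89e-16). Epha5, the most abundant of the 40 genes in neurons, was at 1.96, 2.14 and 1.71 per 10000 in Ddah1 neurons and 1.80, 2.09 and 1.64 in Npy neurons, and did not pass (0.04 ± 0.06, adjusted p = 0.748). Ephb1 passed on few molecules: Ddah1 neurons held 16 UMIs (0.00718, 0.00238 and 0.00356 per 10000) and Npy neurons 3, all in the mixed library. Its ratio was 18.7 with a 95% Poisson interval of 5.36 to 100.2 (edgeR adjusted p = 3.87e-04). Efnb1 was slightly higher (0.57 ± 0.19, adjusted p = 0.0274), a call lost without the posterior library (adjusted p = 0.416).

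Glial RNA in these neurons was measured beside the higher genes, since Nrp2, Plxnb1, Efnb1 and Sema5a were also found in glia-like cells. Epha7 and Ephb1 were also lower in neurons than in glia-like cells, calls kept in 12 and 11 of 13 alternative settings. The 8 glial markers summed to 2.60, 2.81 and 4.74 per 10000 in Ddah1 neurons and 2.40, 1.95 and 4.39 in Npy neurons. Glia-like cells, with glial sums of 132, 157 and 223 per 10000, had Nrp2 at 0.564, 0.572 and 0.655 per 10000. Without the neurons that carried RNA of other classes, the log2 fold changes were 4.01 for Nrp2, 2.21 for Plxnb1, 2.51 for Sema5a and 0.62 for Efnb1, and all 4 still passed. Epha7 and Ephb1 still passed as well. The part of glial RNA in these differences was otherwise not tested.

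**Figure D1:**
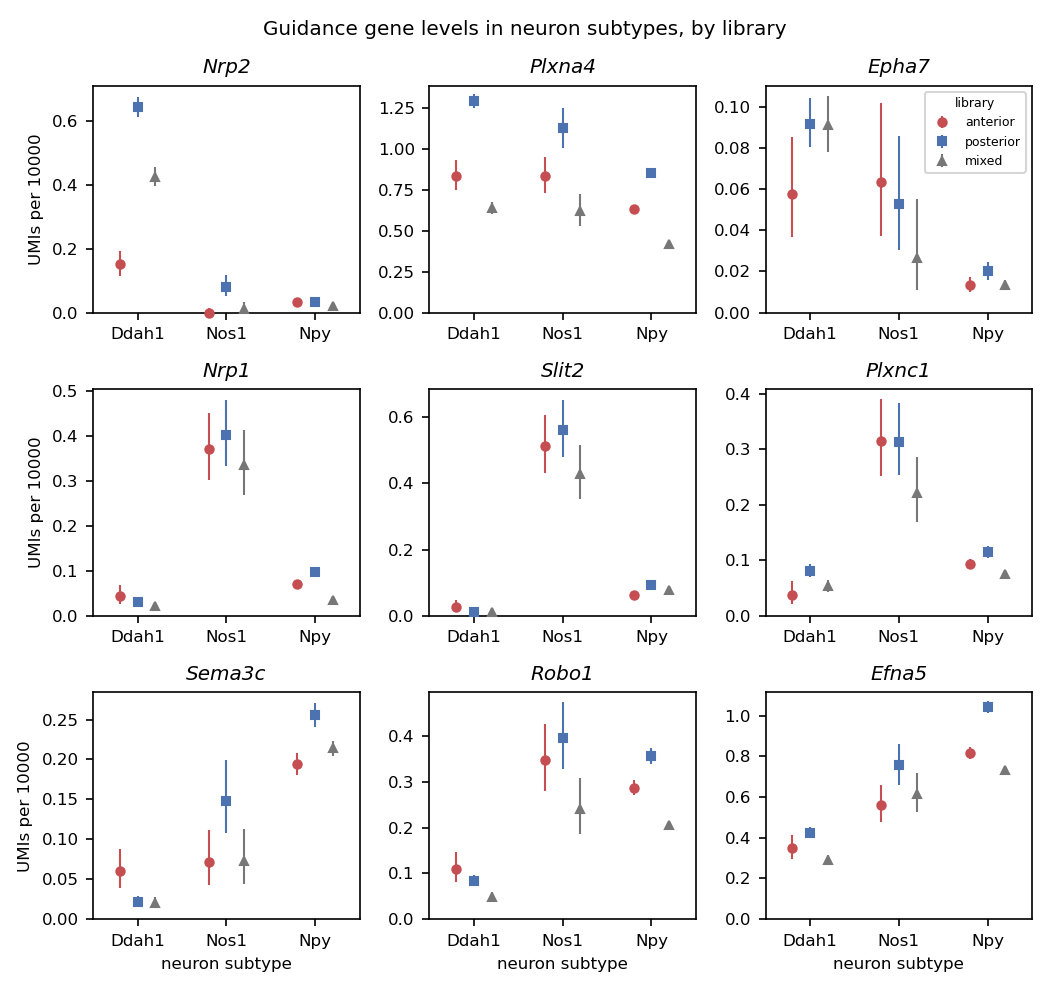
Levels of 9 guidance genes in UMIs per 10000 (y axis, from 0) in Ddah1, Nos1 and Npy neurons (x axis); each point is 1 library and bars are exact Poisson 95% intervals, which cover counting error only. Nrp2 is highest in Ddah1 neurons (0.151 to 0.643), Nrp1 and Slit2 in Nos1 neurons (0.336 to 0.403 and 0.428 to 0.561), and Sema3c and Efna5 are lowest in Ddah1 neurons.

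Nos1 neurons were set against the same Npy neurons, so both comparisons share their reference. Here more guidance genes passed as higher than as lower: the secreted ligands Slit2, Slit3 and Ntn1 and the receptors Nrp1, Plxnc1 and Plxnd1 all rose. Of the 38 genes tested, 15 were higher in Nos1 neurons, 3 were lower and 20 did not pass. Among all 16221 genes, 5.02% were higher and 8.22% were lower (13.2% in either direction). The median log2 fold change was 0.22 over the 38 genes and -0.08 over all genes.

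Slit2 had 0.513, 0.561 and 0.428 UMIs per 10000 in Nos1 neurons, against 0.0637, 0.0935 and 0.0767 in Npy neurons. The groups did not overlap, and the ratio within libraries was 8.06 (95% Poisson interval 6.51 to 9.94), 6.004 (4.99 to 7.20) and 5.58 (4.53 to 6.83). The fit gave a log2 fold change of 2.59 ± 0.13 (SE, n = 3 libraries; edgeR adjusted p = 2.76e-15). Thinned to 10000 UMIs, 39.3%, 42.6% and 32.7% of Nos1 neurons had a Slit2 UMI, against 6.69%, 7.89% and 7.25% of Npy neurons; unthinned, 67.9%, 59.0% and 61.8% of Nos1 neurons and 18.3%, 30.3% and 29.4% of Npy neurons did. At 2000 UMIs, a depth glia-like cells also reach, the shares were 8.33%, 13.1% and 7.27% in Nos1 neurons, 0.955%, 1.84% and 1.53% in Npy neurons and 1.05%, 0.699% and 0% in glia-like cells. The 0 was 0 of 68 cells, which allows a share of up to 4.41%. Median depths before thinning were 33729.5, 50422 and 45938 UMIs in Nos1 neurons and 3949, 5267 and 4309 in the glia-like cells used. The measured share of Nos1 neurons with Slit2 lay above that of glia-like cells in each library. It rests on 84, 61 and 55 Nos1 neurons, and this difference was not tested. Slit3 was also higher, with 0.341, 0.314 and 0.229 per 10000 in Nos1 neurons, against 0.113, 0.133 and 0.0814 in Npy neurons (1.35 ± 0.13, adjusted p = 1.93e-09). Their receptors were not: Robo1 had 0.348, 0.396 and 0.241 per 10000 in Nos1 neurons and 0.287, 0.356 and 0.205 in Npy neurons (0.13 ± 0.11, adjusted p = 0.561), and Robo2 had an adjusted p of 0.793.

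Ntn1 (chromosome 11, 68209364 to 68400823, minus strand), the secreted netrin that binds Dcc and Unc5 receptors, had 13, 22 and 10 UMIs in Nos1 neurons (0.0487, 0.0726 and 0.0382 per 10000). Npy neurons, with many times the total depth, held 5, 7 and 1 (0.00120, 0.00165 and 0.000114 per 10000). Every Nos1 value was above every Npy value (log2 fold change 5.80 ± 0.55, adjusted p = 2.76e-09). Ntn4, a laminin-binding netrin, also passed (2.58 ± 0.70, adjusted p = 0.0114) on 12 UMIs, with 0 in the mixed library; the call was lost without the anterior library (adjusted p = 0.403) and without the posterior library (adjusted p = 0.058). None of the 3 netrin receptors passed, with log2 fold changes of 0.24 for Dcc, 0.20 for Unc5b and -0.16 for Unc5c (adjusted p = 0.851, 0.486 and 0.237).

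Of the 9 neuropilins and plexins, 6 were higher and 0 lower; Nrp2, Plxna1 and Plxna3 did not pass. Nrp1 had 0.371, 0.403 and 0.336 UMIs per 10000 in Nos1 neurons, against 0.0704, 0.0979 and 0.0364 in Npy neurons (log2 fold change 2.41 ± 0.16, adjusted p = 1.20e-12). Plxnd1 (chromosome 6, 115954811 to 115995005, minus strand) had 0.165, 0.155 and 0.0841 per 10000 in Nos1 neurons, against 0.0332, 0.0386 and 0.0202 in Npy neurons (2.04 ± 0.19, adjusted p = 2.80e-09). Both Sema3-type receptors were high in the Nos1 neurons of each library. Plxnc1, the plexin of Sema7a, had 0.314, 0.314 and 0.222 per 10000 in Nos1 neurons, against 0.0925, 0.114 and 0.0744 in Npy neurons (1.50 ± 0.14, adjusted p = 1.10e-09). Plxnb1 had 0.0562, 0.0330 and 0.0497 per 10000 in Nos1 neurons, against 0.0115, 0.0106 and 0.0083 in Npy neurons (2.07 ± 0.33, adjusted p = 2.67e-05). Plxnb1 was thus higher than in Npy neurons in both of the other subtypes. Plxna4 (0.35 ± 0.07, adjusted p = 8.05e-04) and Plxna2 (0.45 ± 0.14, adjusted p = 0.0252) rose by less than 2-fold. The Plxna2 call was lost without the anterior library (adjusted p = 0.062) and without the mixed library (adjusted p = 0.115).

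Among Eph receptors, 4 of 6 were higher. Epha4 (chromosome 1, 77367185 to 77515088, minus strand), which binds ephrins of both types, had 6, 7 and 8 UMIs in Nos1 neurons (0.0225, 0.0231 and 0.0306 per 10000), against 4, 10 and 7 in the much larger pool of Npy neurons (0.000961, 0.00235 and 0.000795 per 10000). The log2 fold change was 4.17 ± 0.62 (adjusted p = 1.07e-05), and 4.83 without the posterior library. Epha7 had 0.0636, 0.0528 and 0.0268 per 10000 in Nos1 neurons, against 0.0132, 0.0200 and 0.0133 in Npy neurons (1.55 ± 0.32, adjusted p = 7.24e-04). Epha5, which did not pass between Ddah1 and Npy neurons, passed here: 3.36, 2.81 and 2.55 per 10000 in Nos1 neurons, against 1.80, 2.09 and 1.64 in Npy neurons (0.56 ± 0.07, adjusted p = 3.87e-07). Ephb1 rested on 5 UMIs in Nos1 and 3 in Npy neurons (ratio 34.5, 95% Poisson interval 6.71 to 222.1), and its call was lost without the anterior library (adjusted p = 0.283). Ephrins were not higher. Efna5 had 0.562, 0.756 and 0.616 per 10000 in Nos1 neurons, against 0.816, 1.04 and 0.733 in Npy neurons (-0.51 ± 0.08, adjusted p = 8.96e-06). Efnb2, a B-type ephrin, had 1, 5 and 1 UMIs (0.00374, 0.0165 and 0.00382 per 10000) in Nos1 neurons, against 0.0317, 0.0228 and 0.0200 per 10000 in Npy neurons (-1.66 ± 0.49, adjusted p = 0.0202). The Efnb2 value was -2.83 without the posterior library, and its call was lost without the anterior library (adjusted p = 0.318) and without the mixed library (adjusted p = 0.088).

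Of the 9 semaphorins tested, 1 was higher and 1 was lower in Nos1 neurons. Sema3c had 0.0711, 0.149 and 0.0726 UMIs per 10000 in Nos1 neurons, against 0.194, 0.255 and 0.214 in Npy neurons (log2 fold change -1.25 ± 0.21, adjusted p = 4.92e-05), so that it was lower than in Npy neurons in both other subtypes. The DESeq2 Wald test did not call it (adjusted p = 0.136). Sema5a had 0.00374, 0.0297 and 0.0153 per 10000 in Nos1 neurons, against 0.00120, 0.00283 and 0.00170 in Npy neurons (2.98 ± 0.61, adjusted p = 7.24e-04), on 14 and 32 UMIs. That call was lost without the posterior library (adjusted p = 0.126) and with a Nos1 limit of 2 per 10000 (adjusted p = 0.602). No Sema7a UMI was found in Nos1 neurons and 32 in Npy neurons, where its level was 0.00240, 0.00424 and 0.000455 per 10000. That level pools to 0.00186, under the 0.00361 that 3 UMIs would make over all Nos1 neurons, so a difference was not detectable at this depth.

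**Figure D2:**
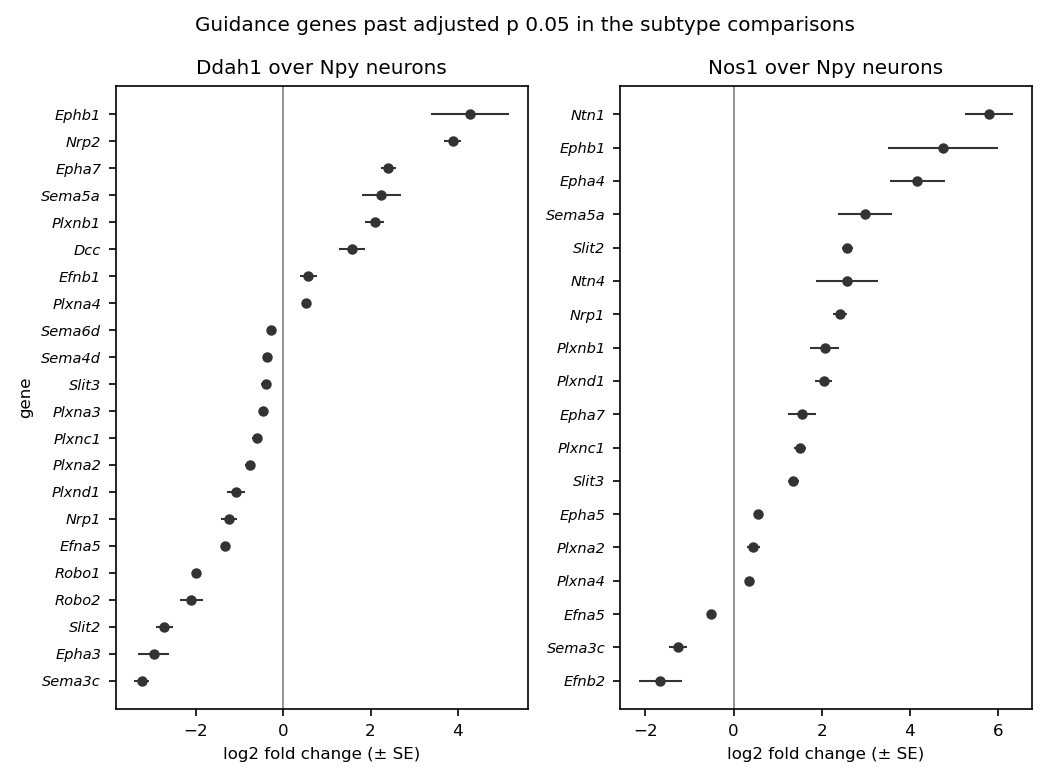
Log2 fold change ± SE (x axis) of the guidance genes (y axis) past an adjusted p of 0.05, for Ddah1 over Npy neurons on the left and Nos1 over Npy neurons on the right; values above 0 are higher in the subtype named first. Ddah1 neurons show 8 higher and 14 lower genes and Nos1 neurons 15 higher and 3 lower genes.

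Other genes of these pathways were taken from lists of 70 genes, of which 62 could be tested in the subtypes. In Ddah1 neurons 4 were higher and 22 lower, and in Nos1 neurons 4 were higher and 8 lower, against the shares of all genes given above. Of 12 tested genes for Slit, netrin and repulsive guidance molecule signalling, 0 were higher and 9 lower in Ddah1 neurons. Islr2, a leucine-rich-repeat membrane protein with a role in axon guidance, had 0.0359, 0.0123 and 0.00711 UMIs per 10000 in Ddah1 neurons, against 0.557, 0.494 and 0.265 in Npy neurons (log2 fold change -5.05 ± 0.14, adjusted p = 4.10e-22). This was a larger fall than that of any of the 40 genes in the same fit. The Unc5 receptor Unc5d had 3 UMIs in Ddah1 and 133 in Npy neurons, a ratio of 0.0792 (95% Poisson interval 0.0161 to 0.236). Flrt3, a ligand of Unc5 receptors, and Ntng1, a membrane-anchored netrin-G, were lower as well (-1.50 ± 0.20 and -1.13 ± 0.15). In Nos1 neurons 3 genes of that list were higher and 2 lower. Ntng1 had 0.329, 0.452 and 0.279 per 10000 in Nos1 neurons, against 0.0879, 0.112 and 0.0765 in Npy neurons (1.83 ± 0.15, adjusted p = 7.88e-11). Flrt3 (0.90 ± 0.22) and Rgmb (0.35 ± 0.08), a ligand of neogenin, were higher, while Flrt1 (-0.74 ± 0.10) and Flrt2 (-0.53 ± 0.10) were lower. Ntng1 and Flrt3 thus went down in Ddah1 and up in Nos1 neurons relative to the same Npy neurons.

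Among 9 further ephrins and Eph receptors, 2 were higher and 1 lower in Ddah1 neurons, and 0 were higher and 1 lower in Nos1 neurons. Efna3 (1.43 ± 0.45) and Efna1 (1.12 ± 0.27) were higher in Ddah1 neurons, and the kinase-inactive receptor Ephb6 was lower in both (-0.59 ± 0.08 in Ddah1 neurons, -0.63 ± 0.12 in Nos1 neurons). Of 25 intracellular signalling genes, 1 was higher and 10 lower in Ddah1 neurons, with a list median of -0.17. Dpysl2, the collapsin response mediator of Sema3a signals, fell by 0.77 on the log2 scale in Ddah1 neurons and by 0.45 in Nos1 neurons. The adaptor Nck2 was at -1.07 ± 0.16, Dpysl5 at -0.61 ± 0.06, the actin-binding Ablim1 at -0.54 ± 0.06, and the adaptor Nck1 rose (0.27 ± 0.07). In Nos1 neurons 1 of the 25 was higher and 2 were lower. Ngef, an exchange factor downstream of Epha4, had 8 UMIs in Nos1 and 7 in Npy neurons (4.17 ± 0.94, adjusted p = 0.00212), and Srgap2, a Robo effector, was lower (-0.61 ± 0.14). Of 5 adhesion co-receptors, Nrcam was lower in Ddah1 neurons (-0.98 ± 0.08), and Nrcam (-0.68 ± 0.11) and Cntn2 (-0.63 ± 0.12) were lower in Nos1 neurons. Among 11 more semaphorins and plexins, Sema4g was higher (0.48 ± 0.13) and Sema4c lower (-1.08 ± 0.19) in Ddah1 neurons, and Sema6b was lower in Nos1 neurons (-1.14 ± 0.26).

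Of the 40 genes, 28, 29, 24 and 20 passed between neurons and glia-like, fibroblast-like, endothelial-like and mural-like cells. In the reported fit Epha5, Efna5, Unc5c, Plxna4, Robo1, Sema4d and Sema6d were higher in neurons than in at least 3 of the 4 other classes. Some of those calls were lost under alternatives. For Sema6d, neurons over glia-like cells, the call was lost without the anterior (adjusted p = 0.147) and without the mixed library (0.149), by the DESeq2 Wald test (0.311), with DESeq2's size factors (0.186) and without the library block (0.14), and kept in 8 of 13 settings. For Sema6d, neurons over mural-like cells, it was lost in the same 5 settings (adjusted p = 0.0967, 0.153, 0.138, 0.0773 and 0.0788). For Robo1, neurons over fibroblast-like cells, where the adjusted p was 0.0471, it was lost without any 1 of the libraries (adjusted p = 0.176 without the anterior, 0.17 without the posterior and 0.0835 without the mixed library) and kept in 4 of 13 settings. For Plxna4, neurons over fibroblast-like cells, it was lost without the posterior library (adjusted p = 0.228) and by DESeq2 (0.115). The DESeq2 test did not call Sema4d, neurons over glia-like cells (adjusted p = 0.0832), nor Sema4d, neurons over endothelial-like cells (0.0782). The netrins, the 5 class 3 semaphorins, Sema5a and Sema6a were lower in neurons than in at least 1 other class. The fit joined 15 sums (5 classes in 3 libraries) over 17080 genes. Neurons over glia-like cells had 10 of the 40 genes higher and 18 lower, against 26.1% of all genes higher and 19.9% lower (46.0% in either direction). Neurons over fibroblast-like cells had 8 higher and 21 lower (27.4% and 21.4% of all genes, 48.8% in either direction). Neurons over endothelial-like cells had 8 higher and 16 lower (21.3% and 12.5%, 33.8% in either direction), and neurons over mural-like cells 9 higher and 11 lower (20.1% and 12.3%, 32.4% in either direction). The median log2 fold change of the 40 genes was -1.07, -1.39, -0.19 and 0.28 against glia-like, fibroblast-like, endothelial-like and mural-like cells, beside 0.50, 0.44, 1.26 and 1.05 over all genes. With genes absent from a class set at the bound that 3 UMIs give, the medians of the 40 became -1.15, -1.46, -2.63 and -1.60. Each such bound is only a lower limit of the fold. It is negative where the neuronal level lies under the level that 3 UMIs would give in the class. The all-gene medians were not treated in this way, so these medians cannot be set against them. Those 4 all-gene medians depend on the scaling: DESeq2's size factors in the same edgeR fit moved them by -0.30, -0.22, -0.40 and -0.28. All genes that passed lay on the same side of the all-gene median of their comparison as of 0.

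Of the 40 genes, the highest levels in neurons were those of Epha5 among receptors (1.91, 2.12 and 1.68 UMIs per 10000 in all neurons) and of Efna5 among ligands (0.757, 0.802 and 0.650), a receptor and ligand that bind each other. Against fibroblast-like cells, with Epha5 at 0.0718, 0.104 and 0.0164 per 10000, the log2 fold change was 5.01 ± 0.35 (adjusted p = 2.35e-32), and 5.85 without the posterior library. Glia-like cells had 0.486, 0.341 and 0.327 per 10000 (2.78 ± 0.28, adjusted p = 4.85e-18). Epha5 was higher in neurons than in each of the 4 other classes. Efna5 in neurons was above the 0.215, 0.335 and 0.426 per 10000 of fibroblast-like cells (1.40 ± 0.27, adjusted p = 2.20e-06). The lowest ephrin and, close to Epha4 in its UMI total, the lowest Eph receptor of the 40 genes in neurons were Efnb3 (0.00405, 0.00521 and 0.00361) and Ephb1 (0.00116, 0.00335 and 0.00112).

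Unc5c, which mediates netrin repulsion, had 0.724, 0.857 and 0.568 UMIs per 10000 in neurons, against 0.233, 0.110 and 0.0595 in glia-like and 0.239, 0.167 and 0.0982 in fibroblast-like cells (log2 fold changes 2.86 ± 0.34 and 2.43 ± 0.31, adjusted p = 4.27e-14 and 1.31e-12). Dcc was the lowest of the 3 netrin receptors in neurons, at 0.00906, 0.0213 and 0.00240 per 10000. Without the anterior library the Unc5c value against glia-like cells was 3.45. In endothelial-like cells 1 Unc5c UMI was found, in the anterior library (ratio of neurons 21.8, 95% Poisson interval 3.92 to 862.6). Unc5b was at 0.158, 0.173 and 0.0931 per 10000 in neurons and had 3 UMIs in glia-like cells (ratio 7.38, interval 2.52 to 35.8). It was lower in neurons than in fibroblast-like cells, a call kept in 9 of 13 settings with log2 fold changes of -1.12 to -0.39. Plxna4 had 0.650, 0.981 and 0.462 per 10000 in neurons, against 0.117, 0.0487 and 0 in glia-like cells (3.93 ± 0.41, adjusted p = 1.20e-17, and 4.79 without the anterior library) and 0.102, 0.125 and 0.0537 in mural-like cells (3.31 ± 0.56, adjusted p = 1.58e-07). Plxna3 had 0.187, 0.192 and 0.101 in neurons, against 0.0479, 0.0478 and 0.0327 in fibroblast-like cells (2.14 ± 0.47, adjusted p = 3.47e-05). Plxnb1 was the lowest in neurons of the plexins among the 40 genes (0.0179, 0.0248 and 0.0133).

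Robo1 had 0.270, 0.257 and 0.175 UMIs per 10000 in neurons, against 0.0972, 0.0122 and 0.0298 in glia-like cells (log2 fold change 2.90 ± 0.49, adjusted p = 8.83e-08). That value was 4.09 without the anterior and 2.23 without the posterior library. It had no UMI in endothelial-like cells, where neurons were at least 2.32-fold higher than the level 3 UMIs would give over the class. Sema3c, Plxna3 and Slit3 were also absent from endothelial-like cells, and neurons were at least 1.89-fold, 1.56-fold and 1.10-fold higher. Without the posterior library the calls of Plxna3, Slit3 and Sema4d against endothelial-like cells were lost. These bounds are low because the endothelial-like cells held 314564 UMIs in all, against 248965830 in neurons. In mural-like cells Robo1 and Plxna3 had 1 UMI each, in the posterior library (ratios of neurons 9.84, interval 1.77 to 388.6, and 6.59, interval 1.18 to 260.3). The Plxna3 call was lost without the anterior library (adjusted p = 0.0907) and without the mixed library (adjusted p = 0.0701). Slit2 was at 0.0850, 0.0830 and 0.0734 per 10000 in neurons and had 3 UMIs in glia-like cells (ratio 4.4, interval 1.50 to 21.4). It was lower in neurons than in fibroblast-like cells, a call kept in 13 of 13 settings with log2 fold changes of -1.66 to -1.14. Slit3, the most abundant Slit of neurons at 0.122, 0.126 and 0.0836, was higher in fibroblast-like cells (1.51, 1.58 and 0.786) and mural-like cells (0.408, 1.38 and 0.483), with neurons at -3.22 ± 0.26 and -2.41 ± 0.37 relative to them (adjusted p = 1.94e-26 and 5.54e-09; -1.74 against mural-like cells without the posterior library). Slit1 had 10 UMIs in all neurons.

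The membrane semaphorins Sema4d and Sema6d were higher in neurons than in fibroblast-like cells. Sema4d had 0.442, 0.456 and 0.248 UMIs per 10000 in neurons, against 0, 0.0638 and 0.0327 in fibroblast-like cells (log2 fold change 3.44 ± 0.43, adjusted p = 5.49e-13, and 4.4 without the posterior library), and it was absent from mural-like cells, with neurons at least 5.27-fold higher. Plxnc1, also absent there, was at least 1.32-fold higher in neurons, a call lost without any 1 of the libraries (adjusted p = 0.0619 without the anterior, 0.103 without the posterior and 0.0791 without the mixed library). Sema6d had 0.551, 0.651 and 0.424 per 10000 in neurons, against 0.359, 0.175 and 0.213 in fibroblast-like cells (1.54 ± 0.30, adjusted p = 2.46e-06). At the low end, Sema3a had 8 UMIs in all neurons, and 2, 9 and 5 UMIs in the far shallower endothelial-like cells.

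Several genes were higher in glia-like cells than in neurons, and most of them were not particular to glia-like cells. In the reported fit Sema6a, Plxnb1, Efnb1, Plxnd1 and Sema3c were also lower in neurons than in fibroblast-like cells. That Plxnb1 call was kept in 10 of 13 settings. Sema6a and Plxnd1 stood higher still in endothelial-like cells, with values below. Of the genes given here, Sema3e alone was called against glia-like cells only. It had no UMI in endothelial-like and mural-like cells, where 3 UMIs would give 0.0954 and 0.0676 per 10000, against 0.00382 in all neurons. A level above that of neurons could thus go unseen there. Posterior epithelial-like cells, outside these comparisons, also held Sema3e, with the value at the end. Sema3e, the ligand of Plxnd1, was at 0.00308, 0.00459 and 0.00361 UMIs per 10000 in neurons, against 0.525, 0.475 and 0.446 in glia-like cells (log2 fold change -6.53 ± 0.47, adjusted p = 1.05e-30). Sema6a, a ligand of plexin A receptors, was at 0.00655, 0.00980 and 0.00549 in neurons, against 0.933, 0.718 and 0.863 in glia-like cells (-6.39 ± 0.31, adjusted p = 7.87e-51). Neurons were lower than glia-like cells in every library for both. Plxnb1, at the neuronal levels above, stood against 0.680, 0.681 and 0.774 per 10000 in glia-like cells (-4.83 ± 0.32, adjusted p = 8.89e-35). Efnb1 was at 0.0245, 0.0350 and 0.0231 in neurons, against 0.719, 0.815 and 0.803 in glia-like cells (-4.39 ± 0.30, adjusted p = 4.35e-33). Plxnd1 was at 0.0376, 0.0366 and 0.0199 in neurons, against 0.894, 0.669 and 0.506 in glia-like cells (-4.02 ± 0.30, adjusted p = 1.23e-29). Sema3c was at 0.176, 0.185 and 0.179 in neurons, against 1.21, 1.42 and 1.07 in glia-like cells (-2.38 ± 0.25, adjusted p = 2.13e-17). Summed over glia-like cells, Sema3e and its receptor Plxnd1 were thus both above the neuronal level. Whether single cells held both was not tested.

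In fibroblast-like cells the netrins were high, but not in these cells alone. In the reported fit both netrins and Sema3d were also lower in neurons than in glia-like, endothelial-like and mural-like cells. Leaving out each library in turn, the Ntn4 log2 fold change was -7.62 to -6.73 against mural-like and -7.01 to -6.68 against endothelial-like cells. Ntn1 was at 0.00385, 0.00583 and 0.00112 UMIs per 10000 in neurons, against 0.910, 0.718 and 0.622 in fibroblast-like cells (log2 fold change -7.49 ± 0.34, adjusted p = 1.29e-55), and Ntn4 at 0.00308, 0.00571 and 0.00172 in neurons, against 0.718, 0.359 and 0.246 (-6.59 ± 0.37, adjusted p = 1.36e-43). Sema3d was at 0.000771, 0.00546 and 0.00172 in neurons, against 0.622, 0.757 and 0.606 in fibroblast-like cells (-7.69 ± 0.36, adjusted p = 3.74e-54). These secreted cues were nearly absent from neurons taken as a whole, although Ntn1 was higher in Nos1 neurons, with values above. Of the netrin receptors, Unc5c was higher in neurons than in fibroblast-like cells, while Unc5b was lower in the reported fit. Sema5a was at 0.00173, 0.00819 and 0.00352 in neurons, against 0.215, 0.518 and 0.770 in fibroblast-like cells and 1.53, 0.689 and 0.590 in mural-like cells (-6.53 ± 0.36 and -7.22 ± 0.49, adjusted p = 7.76e-45 and 5.55e-33). Without the posterior library the log2 fold changes were -8.43 for Sema3d and -7.19 for Ntn4 against fibroblast-like cells, and -7.13 and -7.92 for Sema5a against fibroblast-like and mural-like cells. The Sema5a value against mural-like cells was -6.47 without the anterior library. Nrp1 was at 0.0852, 0.0912 and 0.0420 in neurons, against 0.958, 0.949 and 0.753 in fibroblast-like cells (-3.38 ± 0.25, adjusted p = 3.49e-29), and Efnb1 in neurons stood against 0.287, 0.423 and 0.278 in fibroblast-like cells (-3.32 ± 0.32, adjusted p = 8.01e-20).

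Neuropilins were far lower in neurons than in endothelial-like cells, with Nrp1 at 0.0852, 0.0912 and 0.0420 UMIs per 10000 in neurons, against 6.57, 5.39 and 4.17, and Nrp2 at 0.0434, 0.240 and 0.0924 in neurons, against 1.21, 3.42 and 1.43 (log2 fold changes of neurons -5.61 ± 0.27 and -3.53 ± 0.33, adjusted p = 2.03e-51 and 3.81e-20). In vessels, neuropilins also bind vascular endothelial growth factors. Efnb2, a marker of arterial endothelium, was at 0.0322, 0.0240 and 0.0188 in neurons, against 1.01, 1.90 and 1.19 in endothelial-like cells (-5.20 ± 0.44, adjusted p = 3.22e-24). The neuronal levels of Plxnd1 and Sema6a given above stood against 2.43, 1.21 and 1.91 and against 2.32, 2.66 and 1.91 in endothelial-like cells (-5.21 ± 0.36 and -7.67 ± 0.36, adjusted p = 2.63e-32 and 1.20e-53). The endothelial-like values rest on 22 to 30 cells a library.

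**Figure D3:**
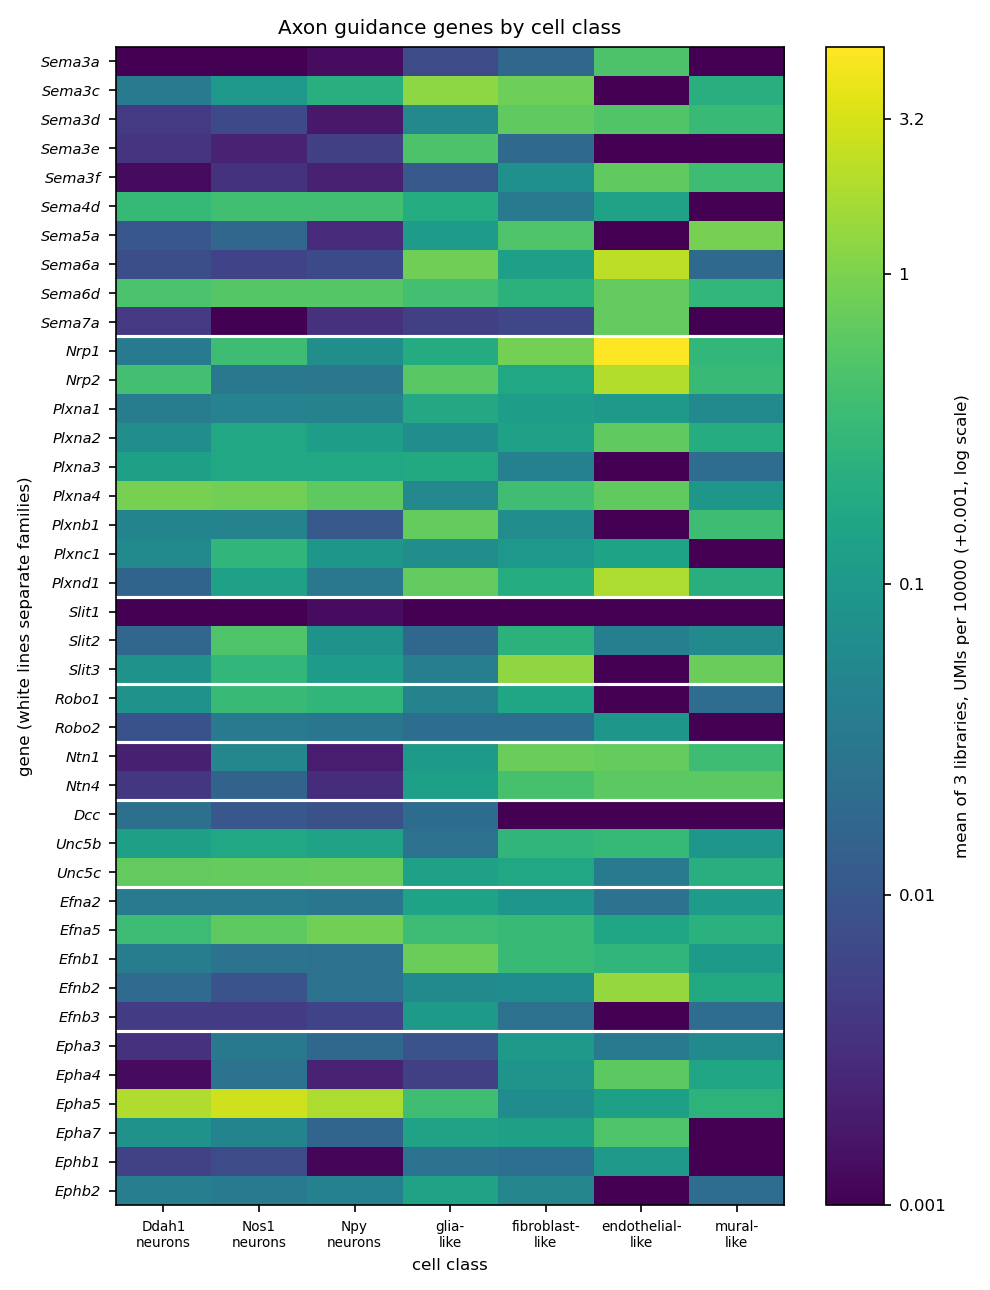
Mean level over the 3 libraries, in UMIs per 10000 plus 0.001 on a log colour scale, of the 40 guidance genes (rows, white lines between families) in 3 neuron subtypes and 4 other cell classes (columns). Epha5 is the brightest row of the neuron columns, and Nrp1 in endothelial-like cells (4.17 to 6.57 per 10000) is the brightest cell.

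Between anterior and posterior neurons 1 of the 40 genes passed a 2-fold difference. There is 1 library per region, so no test was possible, and the ratios carry exact conditional Poisson 95% intervals for counting error only. Of 33 genes with at least 50 UMIs in both libraries together, 0 were higher and 1 was lower in anterior neurons by more than 2-fold (with 1 CPM, a count per 1000000, added to each side). Of all 13676 genes so measured, 0.0292% were higher and 1.42% lower (1.45% in either direction). The median log2 ratio was -0.13 over the 33 genes and -0.09 over all.

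The gene was Nrp2: 0.0434 UMIs per 10000 (225 UMIs) in anterior neurons, against 0.240 (1933 UMIs) in posterior neurons, with 0.0924 in the mixed library. The anterior over posterior ratio was 0.181 (0.157 to 0.208), a log2 ratio of -2.23. Within Ddah1 neurons Nrp2 had 0.151 per 10000 in the anterior, against 0.643 in the posterior library (ratio 0.235, 0.179 to 0.302; log2 ratio -2.02). Within Npy neurons it had 0.0341 in the anterior, against 0.0327 in the posterior library (ratio 1.04, 0.819 to 1.33). In Npy neurons the interval of the ratio held 1, and in Ddah1 neurons it did not. Ddah1 neurons were also a smaller share of neurons in the anterior library, 7.83% (Clopper-Pearson 95% interval 6.44 to 9.42), against 30.1% (27.8 to 32.6) in the posterior library. In Nos1 neurons 0 anterior UMIs stood against 24 posterior ones. Anterior neurons were shallower, with a median of 39854 UMIs against 57151, and with a stricter depth minimum for neurons the log2 ratio was -2.22.

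Within Ddah1 neurons, where 0.218% of 11460 genes were higher and 0.681% lower in the anterior library (0.899% in either direction), Sema3c was the other gene past 2-fold. It had 0.0599 per 10000 (25 UMIs) in anterior and 0.0218 (55 UMIs) in posterior Ddah1 neurons, a ratio of 2.74 (1.64 to 4.47). Within Npy neurons 0 of 28 genes passed, against 0.0471% of 12735 genes higher and 0.236% lower (0.283% in either direction). Within Nos1 neurons 0 of 16 passed, against 0.353% of 8497 genes higher and 0.636% lower (0.989% in either direction). The other 32 genes measured in all neurons had log2 ratios between -0.90 for Epha7 and 0.62 for Robo2.

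**Figure D4:**
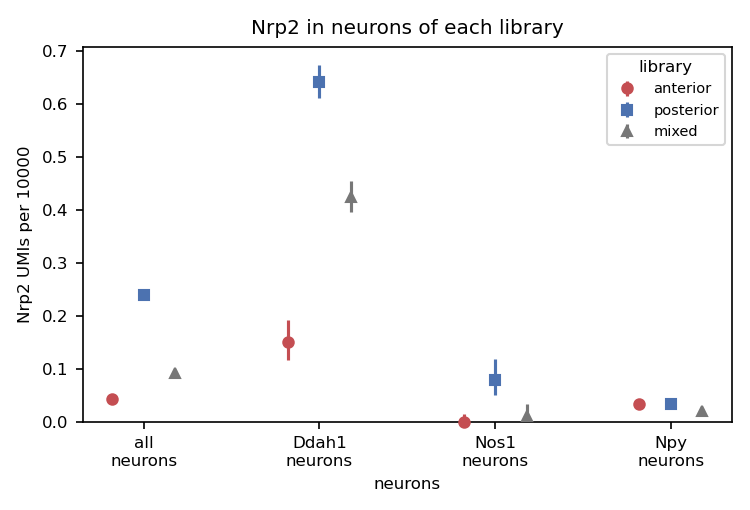
Nrp2 level in UMIs per 10000 (y axis, from 0) in all, Ddah1, Nos1 and Npy neurons (x axis) of the anterior, posterior and mixed libraries; bars are exact Poisson 95% intervals, for counting error only. Anterior Ddah1 neurons are at 0.151 and posterior ones at 0.643, while Npy neurons lie between 0.0198 and 0.0341 in all 3 libraries.

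The subtypes were not uniform in these genes. Subsets were split at 1 UMI per 10000 of a single gene picked with its values known, so what follows is description with no test. Nos1 neurons with Vip, the gene of vasoactive intestinal peptide, numbered 61, 23 and 23, and those without it 23, 38 and 32. Epha5 had 3.98, 4.97 and 4.47 UMIs per 10000 in Nos1 neurons with Vip, against 1.90, 1.82 and 1.41 in those without. Slit2 had 0.657, 1.36 and 0.816 with Vip, against 0.175, 0.197 and 0.200 without. Slit3 had 0.438, 0.698 and 0.465 with Vip, against 0.113, 0.139 and 0.0911 without. For these 3 genes the subsets did not overlap, and the neurons without Vip were near the Npy neurons for Epha5 and Slit3. Ntn1 had 13, 22 and 9 UMIs in Nos1 neurons with Vip, against 0, 0 and 1 in those without, and Epha4 had 6, 6 and 8 against 0, 1 and 0. Nearly all Ntn1 and Epha4 molecules of Nos1 neurons thus came from those with Vip. Plxnc1 had 0.395, 0.560 and 0.382 per 10000 with Vip, against 0.125, 0.202 and 0.127 without, and Plxnd1 0.187, 0.349 and 0.134 against 0.113, 0.0672 and 0.0546. Nrp1 had 0.374, 0.698 and 0.558 with Vip, against 0.363, 0.269 and 0.206 without, so that the anterior subsets were alike. Robo1 (0.310, 0.560 and 0.361 with Vip, against 0.438, 0.322 and 0.170 without) had no common direction.

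Ddah1 neurons with Mucl1, a small mucin-like protein gene, numbered 1, 31 and 33, and those without it 102, 405 and 303. Nrp2 had 1.58 UMIs per 10000 in the posterior and 1.15 in the mixed Ddah1 neurons with Mucl1, against 0.571 and 0.349 in those without. The only anterior neuron with Mucl1 had 4 Nrp2 UMIs, and the anterior neurons without Mucl1 were at 0.142. Leaving out the neurons with Mucl1 thus kept the order of the libraries for Nrp2. Plxna4 had 1.25 and 0.663 with Mucl1, against 1.30 and 0.635 without, and Epha5 1.75 and 1.65 against 2.17 and 1.72 in the posterior and mixed libraries. Among Npy neurons, Sema3c followed Ddc, which encodes aromatic amino acid decarboxylase: 0.238, 0.290 and 0.242 per 10000 with Ddc (748, 618 and 1176 neurons), against 0.0710, 0.0605 and 0.0864 without (299, 142 and 328). With Ptger3, a prostaglandin E2 receptor gene, Sema3c had 0.304, 0.373 and 0.302, against 0.120, 0.161 and 0.157 without. With Edn3, the gene of endothelin 3, it had 0.397, 0.595 and 0.377, against 0.163, 0.217 and 0.200 without. The subsets with each gene were the higher ones in all 3 libraries. With Tspan8 they were not in 2 of 3 libraries (0.0893, 0.276 and 0.149 with Tspan8, against 0.200, 0.254 and 0.221 without).

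**Figure D5:**
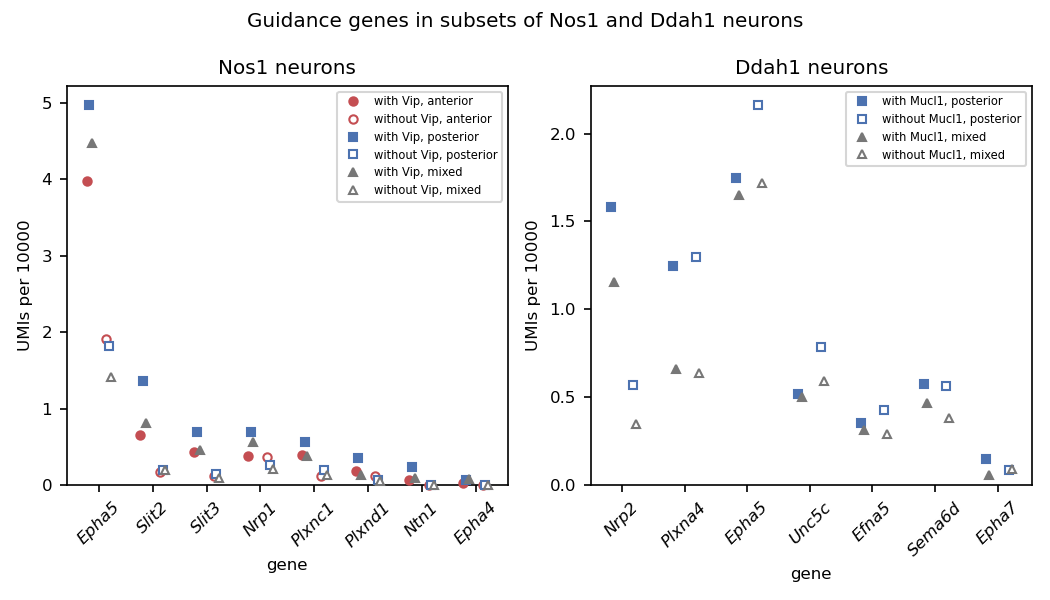
Levels in UMIs per 10000 (y axis, from 0) of guidance genes (x axis) in Nos1 neurons with Vip (filled) and without Vip (open), left, and in Ddah1 neurons with Mucl1 (filled) and without Mucl1 (open), right; each marker is 1 library. The anterior library is left out on the right, where 1 neuron had Mucl1. Epha5 lies between 3.98 and 4.97 in Nos1 neurons with Vip, and Nrp2 at 1.15 and 1.58 in Ddah1 neurons with Mucl1.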

How the data were processed

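Cells were profiled in 3 libraries, 1 each from anterior, posterior and mixed atrial ganglia. The deposited matrices hold raw UMI counts per gene and barcode, and no normalization was applied to them. Per the file headers, Cell Ranger 3.1.0 wrote the mixed matrix and Cell Ranger 6.1.2 the others; the submitters' processing notes list mm10, Seurat 4.4.2 and a later Cell Ranger, 7.1.0. The mixed matrix lists 31064 features and the others 32285, so annotation can change single genes in the mixed library. Totals were 55329380, 86391988 and 119825307 UMIs over 2256, 3276 and 2829 barcodes (anterior, posterior, mixed). Gene positions are 1-based and come from GENCODE vM21 (GRCm38).

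Neurons and their subtypes were gated as given above, with no limit on mitochondrial share. Glia-like, fibroblast-like, endothelial-like and mural-like cells had at least 1000 UMIs, 500 genes and at most 20% mitochondrial UMIs. Their summed neuron markers were under 0.25 of the neuron median, and they had at least 3 markers of the class and a larger share of its list than of others. The limits used to name cells leave borderline neurons: 27, 86 and 42 had Npy between 2 and 8, 176, 282 and 166 had Ddah1 between 0.5 and 2, and 22, 34 and 35 had Nos1 between 0.5 and 2 per 10000 (anterior, posterior, mixed).

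Counts were summed per library and class and fitted with edgeR 4.0.16 (R 4.3.3; TMM, quasi-likelihood test, library as a block) over genes with at least 10 UMIs over the sums. The scripts were tested on simulated counts. Libraries enter as blocks because each holds all classes. The guidance genes, lists, gates and subset genes were chosen with earlier results of these data known. Named genes passed an adjusted p of 0.05 with a fold of 2 in a subtype comparison, had the largest folds in a class comparison with at least 30 UMIs in the higher class, passed 2-fold between regions, or were the highest or lowest in neurons among the chosen genes of their family. Alternatives changed the scaling, test (DESeq2 1.42.0), filter, block, libraries, gates and pseudocount.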

Additional observations from a re-analysis of the deposited data

Results flagged for a closer look

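Nrp2 in Nos1 neurons went opposite ways relative to Npy neurons in the anterior and posterior libraries. The Nos1 over Npy ratio was 0 in the anterior library (0 against 142 UMIs, 95% Poisson interval 0 to 0.410) and 2.42 in the posterior library (24 against 139 UMIs, 1.50 to 3.75). In the mixed library it was 0.580 (3 against 174 UMIs, 0.118 to 1.72). With 1 library per region, the difference was not tested. Of the Nos1 neurons, 3 of 84 anterior, 7 of 61 posterior and 2 of 55 mixed ones also had Ddah1 at 1 or more UMI per 10000, and their part in the difference was not tested.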

How the results depend on the processing

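Libraries act as blocks because each holds cells of all classes. With no replicate block (library term left out), the guidance genes called for Ddah1 over Npy neurons were 5 higher and 6 lower (8 and 14 with it), and for Nos1 over Npy neurons 0 were lower (3 with it) while higher calls numbered 10 (15 with it). The calls lost included Nrp1, Plxnd1, Dcc and Plxna4 in Ddah1 neurons and Sema3c, Epha5, Efna5, Efnb2, Ephb1 and Ntn4 in Nos1 neurons. The DESeq2 Wald test called 1 lower in Nos1 over Npy neurons, with Sema3c and Efnb2 lost, and in Ddah1 over Npy neurons it lost Slit3 and Efnb1. The number of all genes called, Ddah1 over Npy neurons, was 2726 with DESeq2, 853 without the block and 2549 without the posterior library (4153 in the reported fit). That of all genes called, Nos1 over Npy neurons, was 1425, 301 and, without the anterior library, 1214 (2149 in the reported fit).

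Leaving out each library in turn gave 7 to 9 higher and 12 to 15 lower genes for Ddah1 over Npy neurons, and 12 to 14 higher and 2 to 4 lower for Nos1 over Npy neurons. For neurons it gave 9 to 11 higher and 14 to 15 lower over glia-like cells, 6 to 7 and 16 to 20 over fibroblast-like cells, 5 to 9 and 14 to 15 over endothelial-like cells, and 6 to 8 and 9 to 11 over mural-like cells. The 5 over endothelial-like cells came without the posterior library. Of single called genes, 109 subtype results kept their call without 1 library and 11 lost it; for class results 260 kept it and 43 lost it. Under the other alternatives 416 subtype and 982 class results kept it, and 24 and 28 lost it. No called gene of these comparisons changed direction. DESeq2 moved the all-gene median of the class comparisons by -0.85, -0.61, -1.76 and -1.41 (glia-like, fibroblast-like, endothelial-like, mural-like).

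Between regions, guidance genes past 2-fold numbered 4 with 0.1 CPM added, 0 within Npy neurons and 2 within Ddah1 neurons (1 in all neurons). For Nrp2, anterior over posterior neurons, the log2 ratio was 0.0463 within Npy neurons, -2.44 with 0.1 CPM and -1.25 with 10 CPM added. The cause of these changes was not tested. Endothelial-like and mural-like cells held too few UMIs to show genes under about 0.0954 and 0.0676 per 10000.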

Other observations

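Barcodes of other classes, left out of the comparisons, also held guidance RNA. Epha4, at 0.00193 and 0.00273 UMIs per 10000 in anterior and posterior neurons, was at 1.40 (24 UMIs, 95% Poisson interval 0.899 to 2.09) in 36 anterior and 1.31 (12 UMIs, 0.679 to 2.30) in 24 posterior cardiomyocyte-like cells. Macrophage-like cells (16, 49 and 23 cells in the anterior, posterior and mixed libraries) had Nrp1 at 0.793, 1.37 and 1.06 and Plxnd1 at 0.793, 0.914 and 0.604 per 10000. In 70 posterior epithelial-like cells Ntn4 was at 1.56 (84 UMIs, 1.25 to 1.93), Robo1 at 1.47 (79 UMIs, 1.16 to 1.83) and Sema3e at 0.967 (52 UMIs, 0.722 to 1.27). These values are descriptions of a few cells, with no test.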
